A study of Homo sapiens with 18 samples.

Results

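Promoters of intergenic long noncoding RNA (lncRNA) genes were taken as the windows reaching 2 kb to either side of the transcription start site (TSS) of each lncRNA gene that lay outside protein-coding genes. A gene was a member if its body overlapped no protein-coding gene and its TSS was more than 10 kb from any protein-coding TSS. In the GENCODE release 44 annotation lifted to GRCh37, 8104 of 38864 promoter windows of lncRNA and protein-coding genes met the rule, against 10598 other lncRNA windows and 20162 protein-coding windows. The 8104 members formed 7531 loci once overlapping windows were joined. No measured value entered the rule.

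R loops are structures in which an RNA strand pairs with one strand of the DNA duplex and leaves the other unpaired, and they form mostly behind a transcribing polymerase. At coding genes they are best known at CpG-rich promoters and near the sites of transcription termination. Intergenic lncRNA promoters are more often CpG-poor and weakly transcribed, and some host genes of small RNAs and abundant nuclear RNAs stand out among them by high transcription.

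Hybrids were mapped by DRIP-seq, in which fragmented DNA is precipitated with S9.6, an antibody to RNA-DNA hybrids, in HCT116 cells, a human colorectal carcinoma line. Cells were left untreated (NT) or were given 10 μM camptothecin (CPT), a poison that traps topoisomerase I on DNA, for 5 min or 60 min, and were lysed after a short recovery without drug. Each treatment had 2 biological replicates, all of the same cell line, and part of each DNA was digested with RNase H, which removes the RNA of hybrids, before the precipitation. The comparison asks whether trapped topoisomerase I changes the hybrids at these promoters, and the 12 lists of peaks (6 DRIP and 6 RNase H) are analysed here, while the 6 input libraries are not.

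The lists differed in length before any promoter was considered. DRIP lists held 30314 to 56543 peaks in NT and 5 min cells and 41668 and 72879 peaks at 60 min, and in every treatment replicate 2 had the longer list. RNase H lists held 473, 3439 and 5392 peaks in replicate 1 of NT, 5 min and 60 min, but 15790, 50353 and 67188 peaks in replicate 2, so the replicate 2 lists of CPT-treated cells were almost as long with RNase H as without. Reads per window are not in the lists, so presence and covered bases depend on how many peaks were called, and the read depth behind a value is not known here. The lists carry no strand, and a peak in a window cannot be assigned to the lncRNA rather than to an overlapping transcript of another gene.

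In sequence the members were poor in CpG. Their median GC content in the 500 bp to either side of the TSS was 45.35%, against 59.14% at protein-coding promoters, and their median observed over expected CpG was 0.24 against 0.69. Of the members, 710 (8.761%) were CpG-rich (GC over 50% and observed over expected CpG over 0.6), against 57.53% of protein-coding windows and 29.89% of other lncRNA windows. The median restriction fragment under a member TSS was 1187 bp, against 1865 bp at protein-coding TSSs, and 5620 members had only an identifier for a name.

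The sequences of 8 members whose peaks are described further on are shown to set CpG-rich and CpG-poor starts side by side, each from 50 bases before the TSS over 150 bases in the direction of the gene, read from GRCh37 with each CG dinucleotide in capitals. The median number of CG in these 150 bases was 2 over the members and 11 over protein-coding genes, and 19.8% of members had none.
NEAT1, chr11:65190195-65190344, plus strand: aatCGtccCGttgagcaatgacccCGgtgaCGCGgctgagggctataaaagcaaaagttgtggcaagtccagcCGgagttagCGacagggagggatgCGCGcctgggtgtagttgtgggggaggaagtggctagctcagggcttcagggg
MIR17HG, chr13:91999890-92000039, plus strand: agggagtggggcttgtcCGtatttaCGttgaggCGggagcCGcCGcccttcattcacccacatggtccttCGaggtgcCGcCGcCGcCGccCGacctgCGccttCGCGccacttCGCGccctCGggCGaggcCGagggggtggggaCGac
LINC02901, chr6:159290830-159290979, plus strand: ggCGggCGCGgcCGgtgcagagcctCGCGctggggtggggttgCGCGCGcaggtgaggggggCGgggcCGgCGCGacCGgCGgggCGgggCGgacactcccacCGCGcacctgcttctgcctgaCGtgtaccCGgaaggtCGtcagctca
SNHG26, chr7:22893695-22893844, plus strand: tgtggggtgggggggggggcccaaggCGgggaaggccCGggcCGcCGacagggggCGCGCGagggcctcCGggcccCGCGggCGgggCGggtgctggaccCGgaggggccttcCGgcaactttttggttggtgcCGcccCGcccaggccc
UCA1, chr19:15938966-15939115, plus strand: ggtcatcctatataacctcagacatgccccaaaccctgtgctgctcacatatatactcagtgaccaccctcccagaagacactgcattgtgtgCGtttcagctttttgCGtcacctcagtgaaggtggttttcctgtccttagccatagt
ENSG00000289850, chr6:145243401-145243550, plus strand: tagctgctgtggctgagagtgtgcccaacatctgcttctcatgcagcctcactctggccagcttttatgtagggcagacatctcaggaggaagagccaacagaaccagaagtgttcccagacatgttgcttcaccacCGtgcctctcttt
ENSG00000260011, chr17:80340467-80340616, minus strand: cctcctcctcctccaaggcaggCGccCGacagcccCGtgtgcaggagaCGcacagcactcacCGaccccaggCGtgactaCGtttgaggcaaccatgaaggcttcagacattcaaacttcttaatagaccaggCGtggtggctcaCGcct
ENSG00000256982, chr16:89119284-89119433, minus strand: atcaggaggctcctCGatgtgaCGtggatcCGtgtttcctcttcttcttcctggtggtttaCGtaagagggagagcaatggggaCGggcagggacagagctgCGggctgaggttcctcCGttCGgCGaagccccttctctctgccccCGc

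LINC02901, MIR17HG and SNHG26 had 22, 20 and 16 CG in this stretch. UCA1 had 2 and ENSG00000289850 had 1, although both carried strong peaks after CPT.

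A second set of sequences shows where peaks ended. The DNA was cut before precipitation with a mix of 5 restriction enzymes (Bsr GI, Eco RI, Hind III, Ssp I and Xba I), and 45.6% to 62.8% of the DRIP peaks at members, depending on the list, had at least 1 edge at a recognition site. The 40 bases around 6 such edges follow, with the recognition site in capitals and the enzyme named; they are shown because the same edges recur from list to list.
MALAT1, first base region of the CPT peaks, Eco RI, chr11:65266439-65266478, plus strand: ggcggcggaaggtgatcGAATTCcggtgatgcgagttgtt
MALAT1, first base region of the NT peaks, Hind III, chr11:65266769-65266808, plus strand: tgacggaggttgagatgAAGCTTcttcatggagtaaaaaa
NEAT1, upstream edge, Xba I, chr11:65188596-65188635, plus strand: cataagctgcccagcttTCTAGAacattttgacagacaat
UCA1, upstream edge, Hind III, chr19:15938273-15938312, plus strand: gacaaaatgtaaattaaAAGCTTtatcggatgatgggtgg
UCA1, downstream edge, Eco RI, chr19:15941177-15941216, plus strand: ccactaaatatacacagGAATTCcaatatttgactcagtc
MIR17HG, upstream edge, Eco RI, chr13:91999092-91999131, plus strand: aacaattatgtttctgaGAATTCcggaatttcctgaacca

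Few members had a DRIP peak. The share with a peak was 3.381% and 7.539% in NT replicates 1 and 2, 3.492% and 5.38% at 5 min, and 3.591% and 7.157% at 60 min, which is 274, 611, 283, 436, 291 and 580 of the 8104 windows. Replicate 2 was higher in each treatment, and the mean shares of the treatments differed by less than the replicates of any one treatment. The 95% Wilson interval, which covers counting error only, ran from 3.009% to 3.797% in the lowest library and from 6.985% to 8.135% in the highest. Over the 6 lists, 6892 members (85.04%) had no peak, 642 had a peak in 1 list, and 43 had one in all 6. Of protein-coding windows, 41.38% had none.

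**Figure D1:**
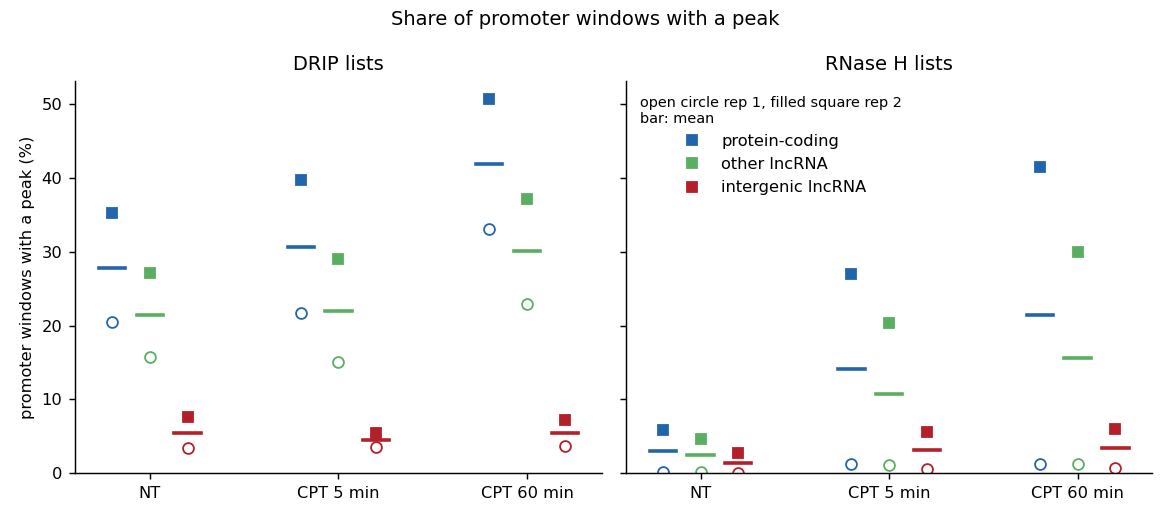
Share of promoter windows with at least 1 peak (y axis, percent) by treatment (x axis) for protein-coding, other lncRNA and intergenic lncRNA genes; open circles are replicate 1, filled squares replicate 2 and bars the mean of the 2. Intergenic lncRNA windows stayed between 3.381% and 7.539% in the DRIP lists while protein-coding windows reached 50.81%.

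Intergenic lncRNA promoters had fewer peaks than protein-coding promoters in all 6 DRIP lists. Protein-coding windows had a peak in 20.5% and 35.25% (NT), 21.66% and 39.73% (5 min) and 33.09% and 50.81% (60 min). The mean difference was -28.42 percentage points over 6 libraries (two-sided exact sign-flip permutation test, p = 0.03125, the smallest that 6 libraries allow). Against other lncRNA promoters the mean difference was -19.42 percentage points, lower in 6 of 6 libraries, with the same exact permutation p = 0.03125. Coverage told the same: peaks covered 0.7129% and 1.96% (NT), 0.6424% and 1.382% (5 min), and 0.8067% and 2.209% (60 min) of member bases. Relative to the part of the genome under peaks in the same list, this was 0.6574 to 0.939 times as much, below 1 in 6 of 6 lists. At protein-coding promoters that ratio was 6.802 to 9.638.

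The peaks that members did have were of ordinary strength. Their median rank by fold enrichment, as a percentile of their own list, was 41.3 to 52.7 over the 6 DRIP lists, whereas peaks at protein-coding promoters had median percentiles of 59.7 to 70.3. Along the window, coverage in the 100 bp before the TSS was above that at the upstream end in all 6 DRIP lists. It was 0.881% against 0.5835% of members in NT replicate 1, for example, and 2.519% against 1.736% in replicate 2 at 60 min. The 2 kb downstream of the TSS was covered more than the 2 kb upstream in 5 of 6 lists, by a mean of 0.0894 percentage points (1.33% against 1.241%; exact sign-flip permutation test, p = 0.0625), and NT replicate 2 went the other way. In windows of 1 kb the difference was 0.00797 (exact permutation p = 0.8438), and without peaks met by RNase H it was 0.0279 (exact permutation p = 0.2812).

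**Figure D2:**
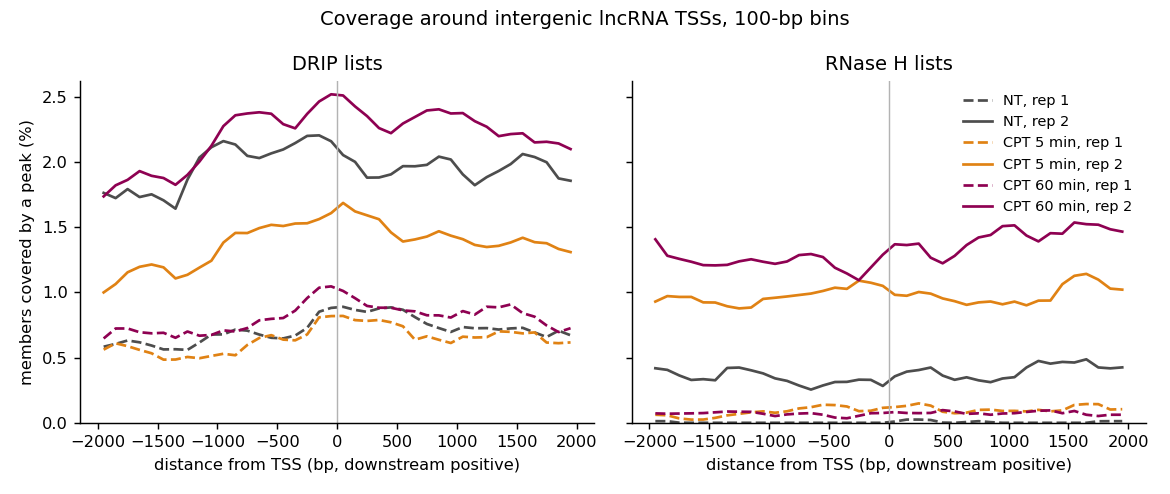
Percent of the 8104 members covered by a peak (y axis) in 100-bp bins of distance from the TSS (x axis, downstream positive), 1 line per list, dashed for replicate 1 and solid for replicate 2. Coverage stays under 3% everywhere and all 3 replicate 2 lines lie above all 3 replicate 1 lines in the DRIP lists.

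The overall share after CPT differed from NT by less than the replicate spread. The mean share was 5.46% ± 2.94 (SD, n = 2) in NT, 4.436% ± 1.335 at 5 min and 5.374% ± 2.522 at 60 min. The difference from NT was -1.024 percentage points at 5 min and -0.0864 percentage points at 60 min, each with p = 1 in a two-sided exact permutation test of 2 libraries against 2, whose smallest possible p is 0.333. The 2 replicates moved in opposite directions at both times: replicate 1 rose slightly and replicate 2 fell. Covered bases changed by -0.324 percentage points at 5 min and by 0.171 percentage points at 60 min (exact permutation p = 0.6667 for both), and the log2 ratio to genome coverage by 0.00078 and -0.13 (exact permutation p = 1 for both).

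Single windows were then followed by presence in both replicates of one treatment and in neither replicate of the other, and no test was run on single windows. At 5 min, 34 members (0.420%) gained a peak and 52 (0.642%) lost one, against 3.01% gained and 1.50% lost over all 38864 promoter windows. At 60 min, 55 members (0.679%) gained and 39 (0.481%) lost a peak, against 5.72% and 0.901% of all windows. From 5 to 60 min, 48 members (0.592%) gained and 18 (0.222%) lost a peak, against 2.56% and 0.257% of all windows. The share lost from 5 to 60 min was near that of all windows. At 5 min more members lost than gained a peak, while over all windows gains outnumbered losses, 1168 to 584. The balance among members turned with a −log10 q of at least 3 (23 gained, 22 lost) and without replicate 2 (205 gained, 196 lost). At 60 min the excess of gains turned with lists cut to equal length (44 gained, 49 lost), without peaks met by RNase H (30 gained, 42 lost) and without replicate 1 (282 gained, 313 lost). By covered bases whose replicates did not overlap, 72 members (0.888%) were higher and 94 (1.16%) lower at 5 min, against 5.22% and 4.99% of all windows. At 60 min, 108 (1.33%) were higher and 73 (0.901%) lower, against 10.2% and 2.66% of all windows. Each of these shares was below that of all windows, of which far more carried a peak in any list.

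The share with a peak was lower in the RNase H list than in the DRIP list in 5 of 6 pairs. RNase H lists had a peak at 0.0494% and 2.665% (NT), 0.5923% and 5.54% (5 min) and 0.6417% and 6.022% (60 min) of members. The exception was replicate 2 at 5 min, with 449 members in the RNase H list against 436 in the DRIP list. The mean difference, DRIP minus RNase H, was 2.505 percentage points (exact sign-flip permutation test over 6 pairs, p = 0.0625). Of the members with a DRIP peak, 1.46% and 17.68% in NT, 9.187% and 42.89% at 5 min and 4.467% and 57.07% at 60 min also had a peak in the RNase H list of the same treatment and replicate. Some members had a peak in both DRIP lists and in no RNase H list of the same treatment. These were 129 members (1.59%) in NT, 40 (0.494%) at 5 min and 29 (0.358%) at 60 min. Over all promoter windows the shares were 11.6%, 3.14% and 2.02%. All 43 members with a peak in all 6 DRIP lists also had one in an RNase H list.

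Peaks concentrated at CpG-rich members and at members close to the 3′ end of a coding gene. These groups were chosen with values of these lists known, so they are described and not tested. CpG-rich members (710) had a peak in 9.155% and 20.56% (NT), 8.873% and 17.04% (5 min), and 14.93% and 29.01% (60 min). The other 7394 had one in 2.827% and 6.289%, 2.975% and 4.26%, and 2.502% and 5.058%. At 60 min both replicates of the CpG-rich members were above their NT value, by 5.775 and 8.451 percentage points, and both replicates of the others were below it. The RNase H lists of the same CpG-rich members rose as well, from 0.1408% to 1.127% in replicate 1 and from 3.099% to 20% in replicate 2. CpG-rich protein-coding promoters went from 25.72% and 45.01% in NT to 46.19% and 70.09% at 60 min in the DRIP lists.

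For 690 members the TSS lay within 10 kb of a protein-coding gene, which, since the rule keeps coding TSSs farther away, is always the 3′ end of that gene. They had a DRIP peak in 11.59% and 19.86% (NT), 7.101% and 13.19% (5 min), and 9.13% and 18.99% (60 min). Both 5 min DRIP libraries were below the NT DRIP library of the same number. In the RNase H lists the shares were 0% and 4.203% (NT), 0.7246% and 9.42% (5 min), and 1.304% and 15.51% (60 min). Of these 690 members, 24 lost a peak at 5 min and 10 gained one, out of 52 and 34 among all 8104 members. Over all promoter windows 1.50% lost and 3.01% gained a peak at 5 min. A loss needs a peak in both NT lists, and all members had one in only 3.381% and 7.539% in NT. More losses could therefore be called near gene ends, and a different response to CPT there was not tested. Members over 100 kb from a coding gene (3358) had a peak in 1.757% and 2.591% (NT), 2.531% and 2.77% (5 min) and 1.876% and 3.306% (60 min). By chromosome, the share with a peak in any DRIP list ran from 3.659% on X to 36.96% on chromosome 22, and none of the 82 members on chromosome Y had one.

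**Figure D3:**
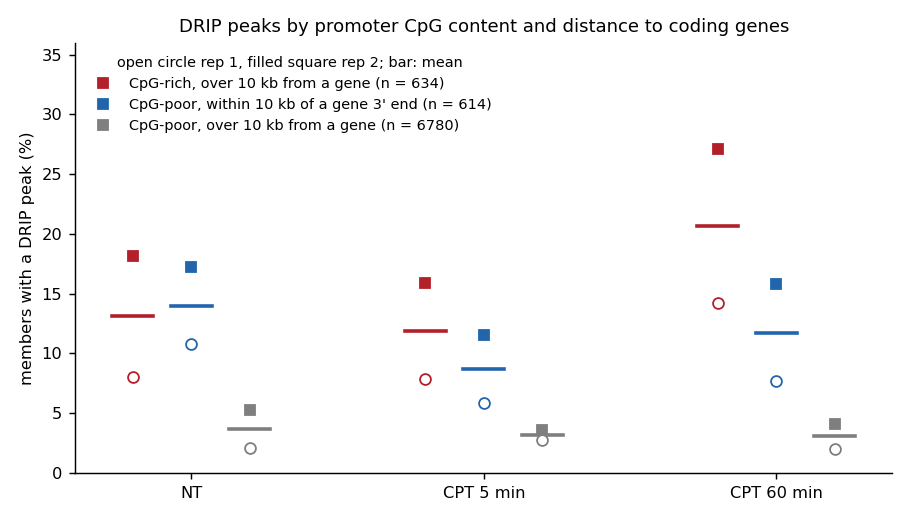
Percent of members with a DRIP peak (y axis) by treatment (x axis) for CpG-rich members over 10 kb from a coding gene, CpG-poor members within 10 kb of a gene 3′ end, and the remaining CpG-poor members; open circles are replicate 1, filled squares replicate 2, bars the mean. The first group was highest at 60 min (14.2% and 27.13%), and the second was lowest at 5 min (5.863% and 11.56%).

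The 43 members with a peak in all 6 DRIP lists fell into 37 loci; 19 were CpG-rich and 17 lay within 10 kb of a coding gene. They were 0.531% of members, against 7.42% of all windows with a peak in all 6 lists. The strongest by rank was LINC02684, with peaks at or above the 99.9th percentile of each DRIP list. Its TSS, near the end of chromosome 11, lies in a restriction fragment of 61088 bp of which 60000 are unknown bases of the assembly, and it had a peak in 5 of 6 RNase H lists. NEAT1, the RNA scaffold of paraspeckles, had 3473 and 3632 covered bases of its window in NT, 3632 and 3632 at 5 min, and 3632 and 4001 at 60 min. Its window was thus almost full in every DRIP library, and its DRIP peaks ranked at the 99.1st percentile or higher. NEAT1 also had a peak in 5 of 6 RNase H lists. The RNase H lists covered 0 and 783 bases in NT, 798 and 3351 at 5 min, and 588 and 4001 at 60 min.

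The other named members of this group varied more. LINC01970 had 2283 and 2568 covered bases in NT, 538 and 2731 at 5 min, and 2833 and 3187 at 60 min. MIRLET7A1HG, which hosts let-7 miRNAs, had 1676 and 2689 bases in NT, 622 and 2302 at 5 min, and 578 and 2062 at 60 min. The NT and CPT libraries of MIRLET7A1HG overlapped at both times, and those of LINC01970 overlapped at 5 min. At 60 min both libraries of LINC01970 were above both NT libraries. In the RNase H lists LINC01970 had 798 bases in NT and 2396 at 60 min in replicate 2, and none in replicate 1. ZNF767P and AP1B1P1 are annotated over pseudogenes, so reads could be shared with near-identical copies and their peaks are uncertain.

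Among members with a new peak, 15 had one in both lists of both CPT times and in no NT list (0.185%, against 2.14% of all windows), and 8 of the 15 were CpG-rich. All 15 also had a peak in an RNase H list at 5 min and at 60 min. LINC02901 had no covered base in either NT list, 2094 and 2915 bases at 5 min, and 3043 and 3142 at 60 min. Its RNase H lists covered 2547 bases at 5 min and 3206 at 60 min in replicate 2 and none in replicate 1. ENSG00000289850, an unnamed gene of chromosome 6 (TSS at 145243451), had 935 and 1260 bases at 5 min and 935 and 935 at 60 min. Its main peak began 1066 bp downstream of the TSS, at a restriction site, in all 4 CPT DRIP lists and ranked at the 95.7th percentile or higher. A peak with the same start was in 3 RNase H lists. In replicate 2 its fold enrichment was 56.74 with RNase H against 27.46 without at 5 min, and 17.88 against 10.16 at 60 min. In replicate 1 it was 12.93 against 19.89 at 5 min, and the 60 min RNase H list held no peak. The third, ENSG00000291171, is annotated over a pseudogene and is uncertain.

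A peak in both 60 min lists only was found at 21 members (0.259%, against 1.33% of all windows), and 14 of them had an RNase H peak at 60 min. LINC01128 had 991 and 863 covered bases at 60 min and none in the other DRIP lists, and ENSG00000233919 had 305 and 287, and ENSG00000286229 739 and 307. ENSG00000233919 had no peak in any RNase H list. A peak in both 5 min lists only was found at 11 members (0.136%), a share near the 0.144% of all windows; none of them was CpG-rich, and 8 had no RNase H peak at all. LINC00621 had 896 and 1423 bases at 5 min, and ENSG00000289357 had 943 and 680. The 5 min peaks of ENSG00000285598 covered 406 and 343 bases and ranked low, at the 28.6th and 10.9th percentiles.

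Loss of a peak from both NT lists to all 4 CPT lists was found at 28 members (0.346%, against 0.638% of all windows), of which 12 lay within 10 kb of a coding gene and 3 were CpG-rich; 18 of the 28 had no peak in any RNase H list. ENSG00000260011 on chromosome 17, 5232 bp beyond the 3′ end of UTS2R, had 1151 and 2829 covered bases in NT and none after CPT. ENSG00000231705, 1224 bp from the 3′ end of PWWP2B, had 1065 and 2064 in NT, but its NT peaks did not overlap between replicates. They lay at positions 231 to 827 and 1533 to 2481 from the TSS in replicate 1, and at -2163 to 63 in replicate 2. After CPT the RNase H lists of replicate 2 covered 328 bases of its window at 5 min and 80 at 60 min. ENSG00000272088, 705 bp from the 3′ end of MEGF6, had 538 and 593 in NT. In replicate 2 the 593 bases were the part inside the window of a 19230-bp peak. Another 9 members (0.111%, against 0.440% of all windows) had a peak in both NT and both 60 min lists but in no 5 min list. ENSG00000256982, on chromosome 16 and 35400 bp from ACSF3, had 3279 and 4001 bases in NT, 0 at 5 min in both replicates, and 516 and 2100 at 60 min, with no peak in any RNase H list. ENSG00000275322, 2690 bp from NR2F2, had 1484 and 1963 bases in NT, 0 in both 5 min DRIP lists and 1672 and 2635 at 60 min. Its window was covered in the RNase H lists of replicate 2, by 500 bases at 5 min and 1476 at 60 min. The third, ENSG00000257391, showed the same order with 667 and 1586 bases in NT and 327 and 1532 at 60 min. The 60 min RNase H list of replicate 2 covered 901 bases of ENSG00000257391. No member had a peak in both NT and both 5 min lists but neither 60 min list, as 0.0309% of all windows did.

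**Figure D4:**
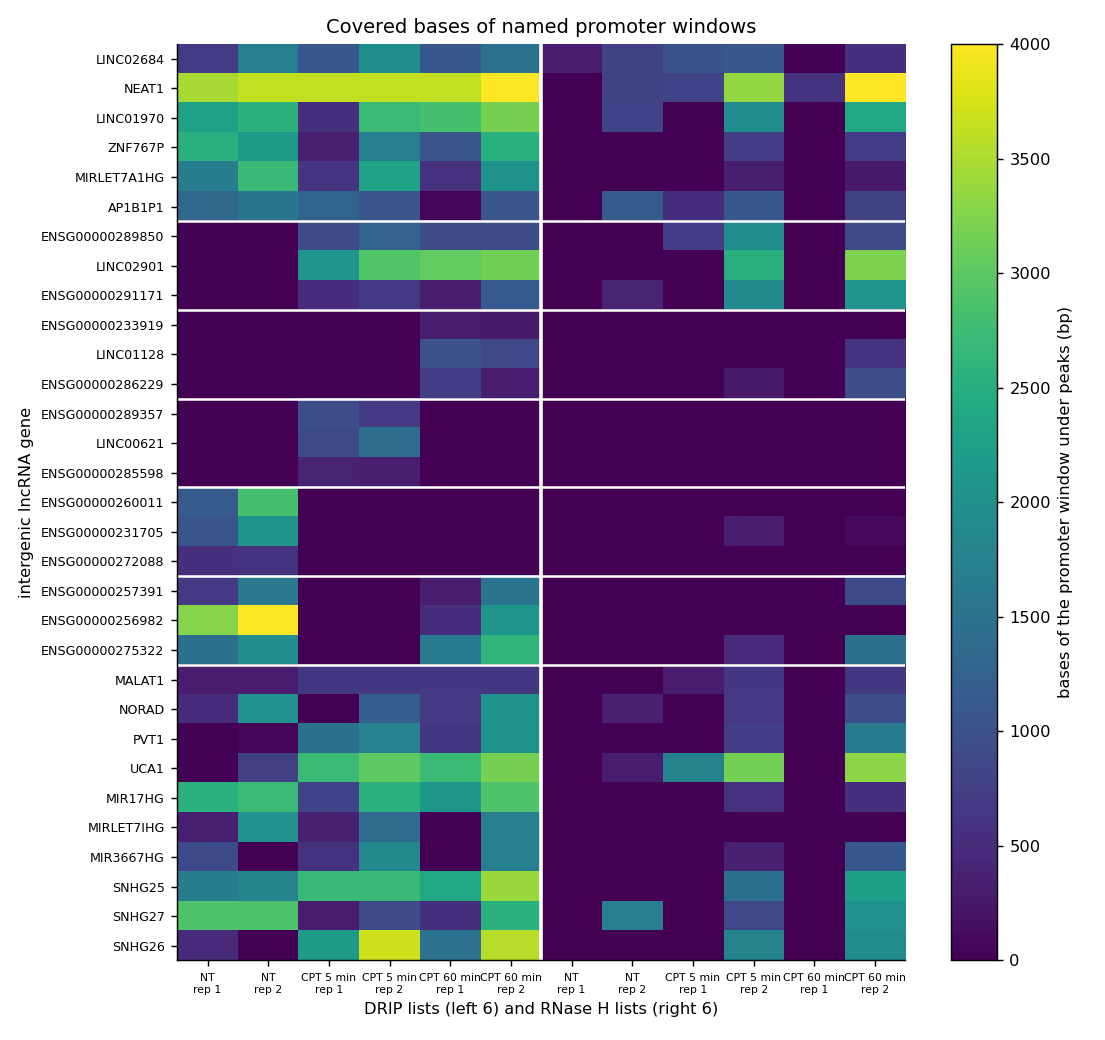
Bases of the promoter window under peaks (colour, bp, of 4001) for the named members (rows) in the 6 DRIP lists (left) and 6 RNase H lists (right); white lines separate the presence patterns and the gene lists. NEAT1 is almost fully covered in all 6 DRIP lists. Of the DRIP lists, LINC02901 is covered in the 4 CPT lists only, and it is also covered in the RNase H lists of replicate 2 at 5 min and 60 min.

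The gene lists were read across the members, beside 1212 of 8104 members with a peak in any DRIP list and 206 with one in 4 or more. The list of nuclear architecture and abundant nuclear lncRNAs held 6 members. Of these, 4 had a peak and 3 (MALAT1, NEAT1 and NORAD) had one in 4 or more lists. Of 6 members linked to p53 or DNA damage, 3 had a peak and 2 had one in 4 or more lists. These 2 were PVT1 and again NORAD, which is on both lists. Of 7 linked to colorectal cancer, 5 had a peak and 1 had one in 4 or more lists. Of 49 miRNA host genes, 15 had a peak and 4 had one in 4 or more lists, and of 5 snoRNA host genes all had a peak and 3 had one in 4 or more lists. Across the 5 lists 1 member gained a peak at 60 min, and none gained one at 5 min or lost one at either time. The 1 was SNHG17, a snoRNA host named here after its values were seen, with no covered base in either NT list, 0 and 1971 at 5 min, and 203 and 1580 at 60 min. SNHG17 also had a peak in 2 RNase H lists.

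MALAT1, an abundant RNA of nuclear speckles, had a peak in all 6 DRIP lists whose rank differed between treatments. The peak was at the 57.8th and 13.0th percentiles of the NT lists and at the 99.8th or higher of all 4 CPT lists. With RNase H it was in neither NT list, but both 5 min lists held it (percentiles 64.4 and 99.9), as did replicate 2 at 60 min (percentile 99.1). In the DRIP lists it covered 325 bases of the window in both NT lists and 655 in each CPT list, and it began at the Hind III site shown above in NT and at the Eco RI site in CPT. UCA1, an lncRNA raised in several carcinomas, had 0 and 764 covered bases in NT, 2726 and 3006 at 5 min, and 2726 and 3178 at 60 min. All 4 CPT lists were above both NT lists, and the same 2908-bp peak, from position -725 to position 2182 relative to the TSS, was present in each. UCA1 also had a peak in 4 of 6 RNase H lists, with 3166 and 3304 bases in replicate 2 at 5 and 60 min.

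PVT1, the neighbour of MYC, had 0 and 60 covered bases in NT, 1479 and 1772 at 5 min, and 626 and 2050 at 60 min, so that every CPT list was above both NT lists. NORAD, which binds Pumilio proteins and has a role in genome stability, had 506 and 2023 bases in NT, 0 and 1200 at 5 min, and 673 and 2033 at 60 min, with the groups overlapping. SNHG26, a snoRNA host, had 495 and 0 bases in NT, 2177 and 3715 at 5 min, and 1509 and 3573 at 60 min. SNHG25 had 1676 and 1823 bases in NT, 2716 and 2716 at 5 min, and 2397 and 3406 at 60 min. In both snoRNA hosts the CPT DRIP lists lay above the NT DRIP lists. SNHG27 went the other way, with 2902 and 2889 bases in NT and 319, 915, 548 and 2550 in the 4 CPT lists. After CPT the RNase H lists of replicate 2 also covered PVT1 (747 bases at 5 min and 1632 at 60 min), SNHG26 (1794 and 1935) and SNHG25 (1455 and 2257). These 3 genes had 0 covered bases in both NT RNase H lists and in all those of replicate 1. SNHG27 had 1713 bases in the RNase H list of replicate 2 in NT, 845 at 5 min and 2027 at 60 min. NORAD had 370, 668 and 959 bases in the same lists.

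The miRNA hosts showed no such separation. MIR17HG, host of an oncogenic miRNA cluster, had 2556 and 2722 bases in NT, 811 and 2556 at 5 min, and 2117 and 2906 at 60 min. Its peak in NT replicate 1 ranked at the 2.5th percentile and in NT replicate 2 at the 99.3rd, which spans the ranks in all 4 CPT lists. MIRLET7IHG had 347 and 2022 bases in NT, 364 and 1403 at 5 min, and 0 and 1708 at 60 min, with no peak in any RNase H list. MIR3667HG had 898 and 0 bases in NT, 580 and 1880 at 5 min, and 0 and 1725 at 60 min.

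**Figure D5:**
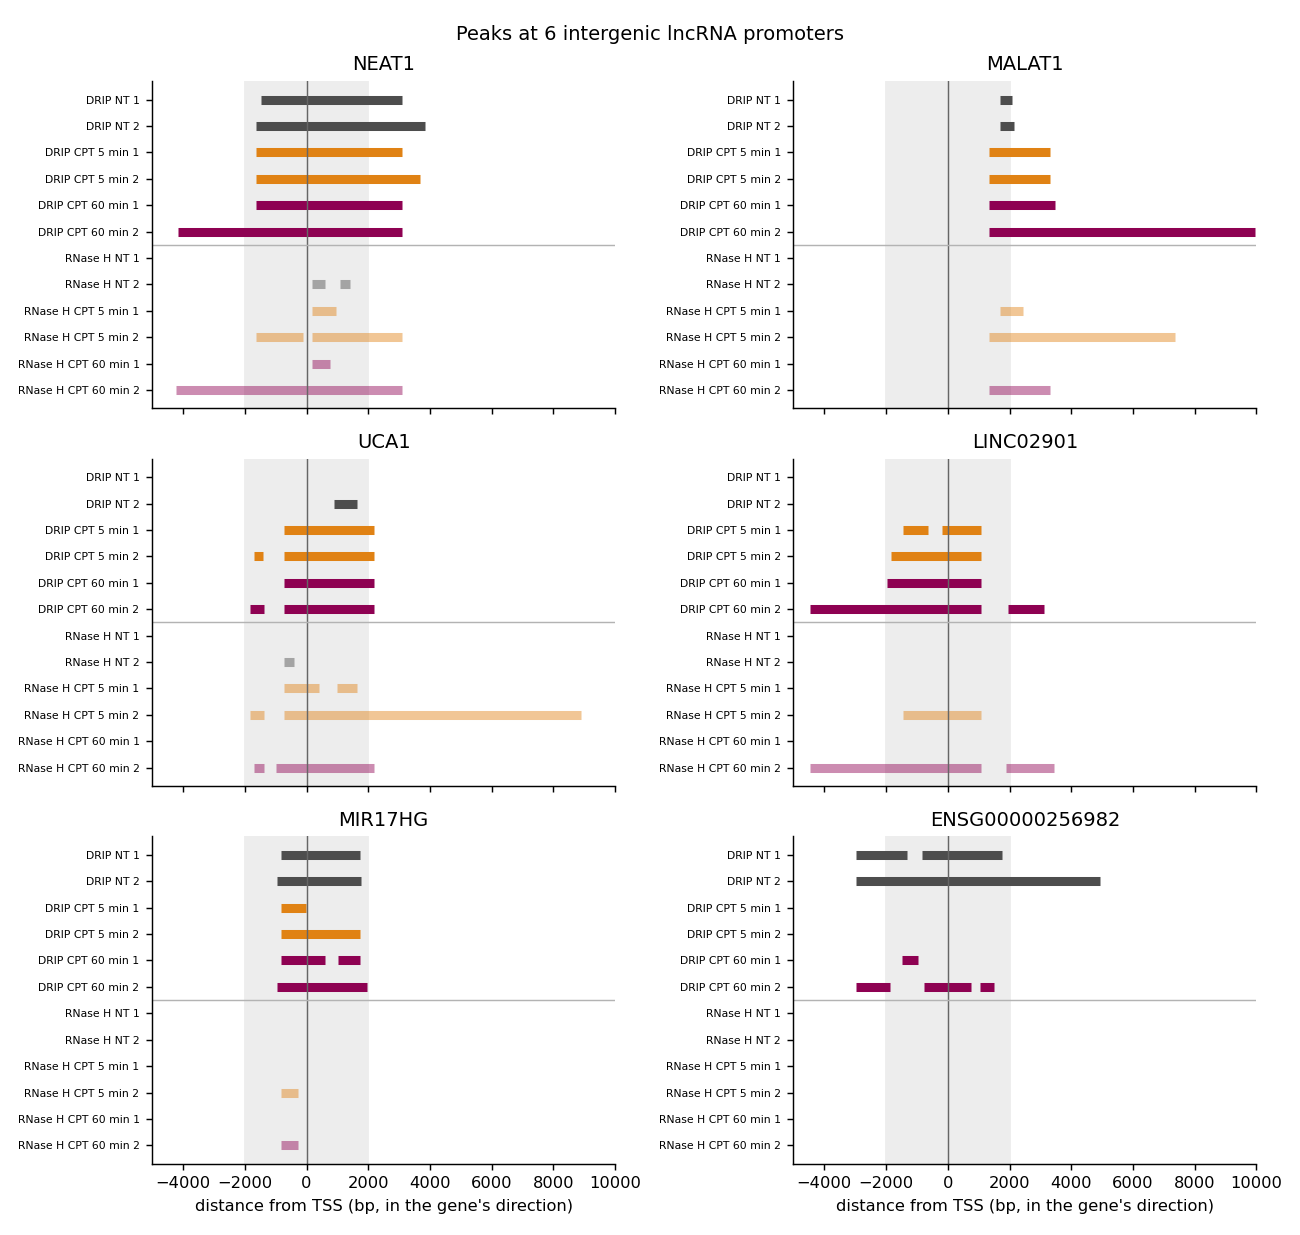
Peaks (bars) of the 6 DRIP and 6 RNase H lists (rows) at 6 members by distance from the TSS in the direction of the gene (x axis, bp), with the window shaded and RNase H bars pale. In the DRIP lists, MALAT1 peaks start closer to the TSS after CPT than in NT, and UCA1 has the same 2908-bp peak in the 4 CPT lists. ENSG00000256982 has no peak at 5 min.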

How the data were processed

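DRIP-seq peak lists of 6 DRIP and 6 RNase H libraries were used. Per the labels and the study's methods, BWA alignment to hg19 (sacCer3 is also named) followed cutadapt trimming, and the authors used SAMtools for filtering and called peaks per library with MACS2, with the paired input as control; for the DRIP-seq steps, versions and the calling threshold are not given in the sources used here. The deposited lists give each peak its position, fold enrichment (a ratio), −log10 p-value, −log10 q-value and a score; they hold no reads per window. Peaks were set against GENCODE release 44 lifted to GRCh37, the same build as hg19, with Python 3.11.15, NumPy 2.4.6, pandas 2.3.3 and matplotlib 3.10.9. A window had a peak if at least 1 bp overlapped. Libraries were compared by two-sided exact permutation tests. The counting of windows and bases was tested on simulated data. Members and gene lists were chosen with earlier results of these data known. Named genes were list members with a peak in at least 4 DRIP lists (up to 6 per list) and, per presence pattern, the 3 members (6 for all 6 lists, genes with a symbol first) whose lowest percentile of fold enrichment was highest, 1 per locus. Alternatives were lists of equal length, a −log10 q of at least 3, at least 400 bp covered, windows of 1 kb, merged loci, a distance of 50 kb, removal of peaks met by RNase H, chromosomes 1 to 22 and X, the replicate block, counting by covered bases and leaving out each replicate; leaving out members within 10 kb of a coding gene was chosen after seeing the data.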

Additional observations from a re-analysis of the deposited data

Results flagged for a closer look

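CpG-rich members and the other members moved in opposite directions from NT to 60 min CPT in both replicates, and their mean changes in the share with a DRIP peak differed by 7.89 percentage points (CpG-rich minus the others). The changes were 5.775 and 8.451 percentage points in CpG-rich members and -0.3246 and -1.231 in the others. In the RNase H lists the CpG-rich members rose too, from 3.099% to 20% in replicate 2. Likewise, CpG-rich members over 10 kb from a coding gene rose by 6.151 and 8.991 percentage points, and CpG-poor members within 10 kb of a gene 3′ end changed by -3.094 and -1.466, a difference of 9.851 percentage points. Neither difference was tested, and the 60 min lists were longer than the NT list of the same replicate.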

How the results depend on the processing

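The lower share at intergenic lncRNA than at other promoters kept its direction under every alternative run; leaving out 1 replicate gave -35.24 to -21.59 percentage points against protein-coding and -24.43 to -14.41 against other lncRNA promoters, where 3 libraries allow no p below 0.25. DRIP minus RNase H fell under the threshold of 0.05 (exact permutation p = 0.03125) with a −log10 q of at least 3 (1.769), at least 400 bp covered (2.026) and 1-kb windows (2.015). It was 3.313 with lists of equal length, where DRIP lists were cut to 30314 peaks and RNase H lists to 473. That setting could not test the difference, because the cut itself left the RNase H lists far shorter. Downstream minus upstream fell under 0.05 (exact permutation p = 0.03125) with the q threshold (0.0923), equal lengths (0.0813) and a distance of 50 kb (0.1001). But it was 0.00797 in 1-kb windows and 0.0279 without peaks met by RNase H.

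The 60 min change in share turned to 0.284 with the q threshold, 0.0555 in 1-kb windows and 0.0607 without members within 10 kb of a coding gene, and was -0.728 with lists of equal length and -1.086 without peaks met by RNase H. Log2 enrichment turned at 60 min with the q threshold (0.0084) and at 5 min with merged loci (-0.0089) or without peaks met by RNase H (-0.15), and covered bases at 60 min without those peaks (-0.424). Without 1 replicate the 5 min share change was -2.16 to 0.111, the 60 min one -0.383 to 0.210, and log2 enrichment -0.16 to 0.16 at 5 min and -0.29 to 0.024 at 60 min. None of these changes passed a test in the full design. Gained windows at 5 min were 18 without peaks met by RNase H, 72 by covered bases and 204 to 205 without 1 replicate; at 60 min they were 30, 108 and 187 to 282, and 36 with 400 bp covered. Lost windows at 5 min were 22 with the q threshold, 28 away from coding genes, 94 by covered bases and 196 to 379 without 1 replicate; at 60 min they were 20, 21, 73 and 170 to 313.

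With the replicate number as a block the differences were the same (-1.024 and -0.0864 for the share), and 2 pairs allow no p below 0.5. Deviations of same-numbered libraries correlated at 0.46, 0.41 and 0.57, with only 2 pairs per comparison. Without the pairing of DRIP and RNase H lists, p was 0.07792 (exact permutation). Read depth behind the lists was not known, so a window without a peak is not shown to lack hybrids.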
